A study of Mus musculus with 4 samples.

Results

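The 7 genes described here mark cortical thymic epithelial cells (cTECs) or serve the selection of thymocytes in the thymic cortex: Psmb11, Prss16, Tbata, Enpep, Scx, Ackr4 and Ly75. They were taken by name, from the gene name of each array probe or the current symbol of its RefSeq accession, and matched 11 of the 41174 probes of the array, or 7 of its 19886 named genes. Ackr4 appears there under its older name Ccrl1. Gene expression was measured on 1-colour (Cy3) microarrays in CD45-negative, EpCAM-positive thymic epithelial cells (TECs). The mice were 3 weeks old, and all of them, controls included, carried the K14-CreERT2 transgene, a tamoxifen-inducible recombinase under the keratin 14 promoter, and were given tamoxifen (1 mg a day, 3 days) 4 days before the sort. Meis1-CKO mice had both Meis1 alleles floxed (Meis1fl/fl). Controls, called WT in the labels, were Meis1fl/+, so 1 floxed allele could recombine in them as well. Each group had 2 pools of 6 mice from 2 independent experiments. Each pool was hybridised to 1 array after amplification from 10 ng of RNA. The labels do not give the share of cortical cells in which the allele recombined, and keratin 14 is chiefly a keratin of the medulla in the adult thymus.

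The thymic cortex is where CD4 CD8 double-positive thymocytes are tested for a useful T cell receptor. cTECs present them with peptides that other cells do not make in the same form: a thymus-specific proteasome cuts peptides for MHC class I, and a set of lysosomal and endosomal proteases, cathepsin L and the thymus-specific serine protease among them, prepares peptides for MHC class II. The transcription factor FOXN1 drives much of this program, including Psmb11, and MEIS1 is a homeobox factor. The comparison asks how expression in TECs differed once Meis1 had been deleted.

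The probes behind each result are 60 bases long, and where a gene had several, the brightest on average was used. Their first 30 bases are given so that the measured stretch of each transcript can be found, with positions on mm9.
Psmb11 (chr14:55245215-55245274, plus strand): cttcccagagctactgatgtctctgtccaa
Prss16 (chr13:22094369-22094428, minus strand): aatgtaggcaaatgattactgtcctttgta
Tbata (chr10:60643260-60643319, plus strand): atcaaagaaacacaaaatcacacctagcag
Enpep (chr3:128972910-128972969, minus strand): gctaagtgttcttcatgggaaagtctttac
Scx (chr15:76289708-76289767, plus strand): tgaacagagagatggacaggcgggtgatgg
Ackr4 (chr9:104000864-104000923, minus strand): atttgtgttacaccgagacccaaccatcaa
Ly75 (chr2:60130362-60130421, minus strand): cagttttcctaaaatatttttcttgaggcc
Which exon or untranslated part each probe lies in was not analysed here.

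Promoters are shown for a pair of genes whose signals were low together on 1 array, Psmb11 and Tbata, and for Ly75, which differed the other way there. Each is the 250 bases before the RefSeq start on GRCm38.p6, in the direction of the gene. Capitals mark TGACAG, the core that MEIS factors bind, and GACGC, the core of the FOXN1 motif, each searched on both strands.
Psmb11 (chr14:54625060-54625309, plus strand): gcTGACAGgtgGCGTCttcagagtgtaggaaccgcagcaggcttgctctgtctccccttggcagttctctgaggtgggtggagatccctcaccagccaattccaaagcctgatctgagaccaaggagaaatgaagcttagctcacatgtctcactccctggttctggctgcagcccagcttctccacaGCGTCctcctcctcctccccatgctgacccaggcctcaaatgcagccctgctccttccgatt
Tbata (chr10:61171714-61171963, plus strand): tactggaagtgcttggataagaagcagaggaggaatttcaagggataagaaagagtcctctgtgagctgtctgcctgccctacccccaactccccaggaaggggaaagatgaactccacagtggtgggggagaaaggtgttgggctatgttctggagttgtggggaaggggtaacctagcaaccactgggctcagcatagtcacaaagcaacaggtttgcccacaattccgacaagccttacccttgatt
Ly75 (chr2:60383274-60383523, minus strand): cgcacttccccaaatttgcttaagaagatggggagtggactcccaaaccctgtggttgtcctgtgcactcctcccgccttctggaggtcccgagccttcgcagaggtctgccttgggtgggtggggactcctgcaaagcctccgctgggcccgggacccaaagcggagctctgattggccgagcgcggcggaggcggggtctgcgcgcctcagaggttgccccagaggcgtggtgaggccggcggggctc
The Psmb11 window held 1 TGACAG, from 248 to 243 bases before the start, and 2 copies of GACGC, both on the opposite strand, ending 235 and 58 bases before it. The 2 other windows held neither motif. Of the 5 members with a promoter in the table, TGACAG was in 3 (Psmb11, Enpep and Ackr4), against 15.9% of all 32851 promoter windows of that length, and GACGC in 2 (Psmb11 and Enpep), against 22.6%. These matches describe letters only.

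Levels are log2 signals relative to the 75th percentile of the array, so that 0 is the signal at that percentile. Slide 1 held the first pool of each group and slide 2 the second, so each slide gives its own difference of Meis1-CKO minus control. The share of spots well above background was 58.6% to 63.6%, and 0 spots were saturated. Meis1-CKO 2 stood apart, with correlations of 0.856 to 0.884 with the other arrays across genes, against 0.936 to 0.943 among the others. Meis1 itself read -0.12 (control 1), -0.91 (control 2), -0.43 (Meis1-CKO 1) and -2.09 (Meis1-CKO 2), a log2 difference of -0.75 (SE 0.69, limma adjusted p = 1.00). Since the labels do not name the floxed exons, this probe (chr11:18911247-18911306) does not check the labels. A second Meis1 probe (chr11:18781206-18781265) was above background in both controls (-3.19 and -3.23) and in neither Meis1-CKO pool. By that probe Meis1 was at least 1.46-fold lower in Meis1-CKO, with undetected values raised to a floor. That floor was the lowest signal called above background on the array, used where the probe's own signal was below it. The sort was borne out for epithelium, with Epcam at 4.24 and 4.72 in controls and 4.47 and 4.11 in Meis1-CKO. Ptprc, which encodes CD45, the antigen sorted against, was above background on all 4 arrays, at 1.44 and 1.19 in the controls, -0.75 in Meis1-CKO 1 and 5.55 in Meis1-CKO 2.

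Psmb11 and Prss16, both genes of peptide processing, had their lowest values in Meis1-CKO 2, while Meis1-CKO 1 lay between the controls. Psmb11 encodes beta5t, the catalytic subunit of the thymoproteasome. It read 3.13 and 2.14 in control 1 and 2, 2.53 in Meis1-CKO 1 and -1.19 in Meis1-CKO 2, from processed signals of 816, 603, 630 and 66.9. Meis1-CKO 1 thus lay between the 2 controls and Meis1-CKO 2 far below both. The difference was -0.60 on slide 1 (1.51-fold lower) and -3.33 on slide 2 (10.1-fold lower), and 0.77% of all features tested had a slide 2 difference at or below that. Over both slides the log2 difference was -1.96 (SE 1.24, 95% interval -5.05 to 1.13, n = 2 pools each, limma adjusted p = 1.00). The controls averaged 2.64 ± 0.70 (SD, n = 2) and the Meis1-CKO pools 0.67 ± 2.63. Without Meis1-CKO 2 the difference was -0.10. Without Meis1-CKO 1 it was -3.83, from a fit that rests on the assumption that the lone pool varies like the controls. A second Psmb11 probe (chr14:55247705-55247764) was above background on 1 array of each group. On slide 2 it read -3.03 in control 2 and was not well above background in Meis1-CKO 2. On slide 1 the order was the other way, with -3.63 in Meis1-CKO 1 and control 1 not well above background.

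Prss16, the thymus-specific serine protease that acts on peptides for MHC class II, had the same shape. Its level was 2.90 and 2.58 in the controls, 2.86 in Meis1-CKO 1 and 0.01 in Meis1-CKO 2. Slide 1 therefore showed almost no difference (-0.04), whereas on slide 2 Prss16 was 5.92-fold lower (-2.57). The overall log2 difference was -1.30 (SE 0.96, 95% interval -3.71 to 1.10, limma adjusted p = 1.00), and it was 0.12 without Meis1-CKO 2 and -2.73 without Meis1-CKO 1 (adjusted p = 0.0565). The second Prss16 probe was not well above background on any array.

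Tbata, also called Spatial, encodes a protein of thymus, brain and testis. It read 2.93 and 2.95 in the controls, 3.22 in Meis1-CKO 1 and 0.70 in Meis1-CKO 2. The 2 controls were nearly equal, Meis1-CKO 1 was the highest of the 4 arrays and Meis1-CKO 2 the lowest. Differences were 0.29 on slide 1 and -2.25 on slide 2 (4.77-fold lower), with an overall value of -0.98 (SE 0.87, 95% interval -3.16 to 1.20, limma adjusted p = 1.00), 0.28 without Meis1-CKO 2 and -2.24 without Meis1-CKO 1. Its second probe (chr10:60648050-60648109), at 0.67, 0.65, 1.17 and -0.43 on the arrays in the same order, was likewise highest in Meis1-CKO 1 and lowest in Meis1-CKO 2. The slide 2 difference of that probe, -1.07, was smaller.

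**Figure D1:**
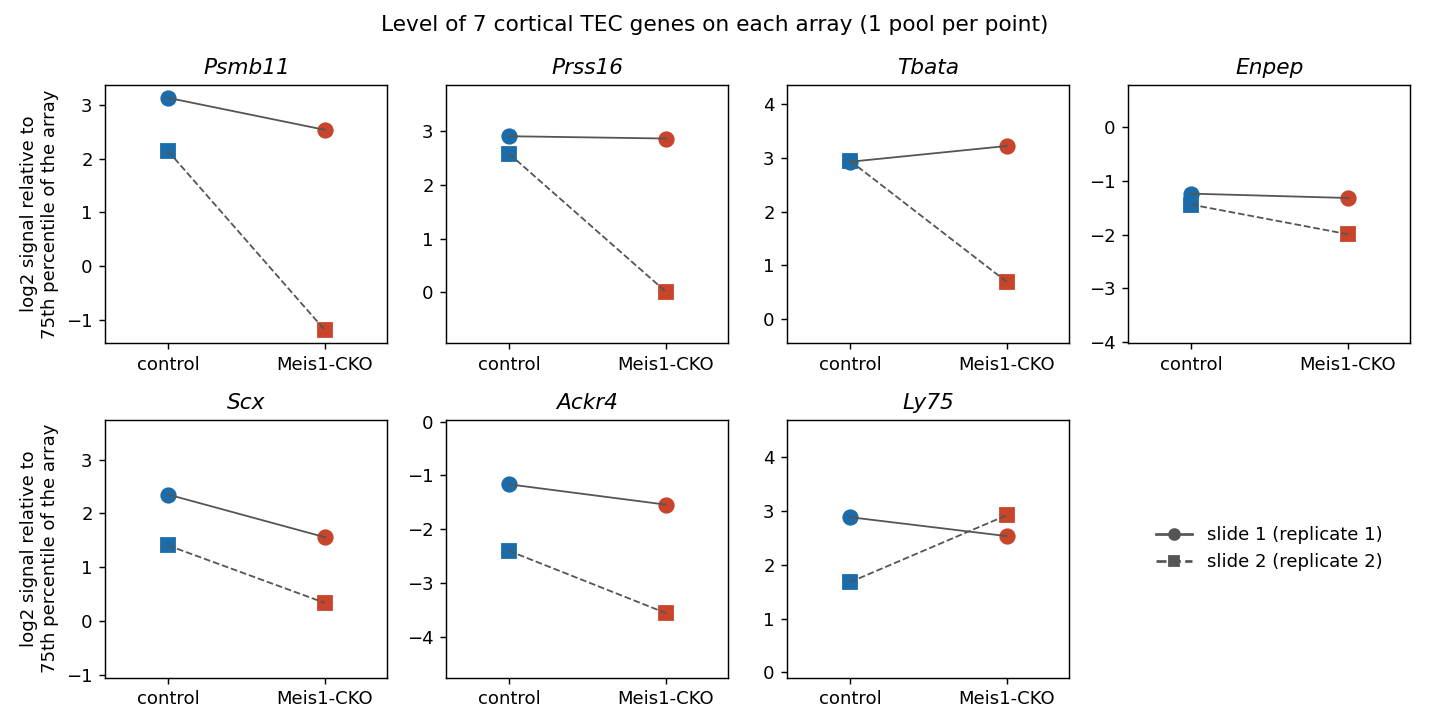
Level of each of the 7 genes on the 4 arrays, as log2 signal relative to the array's 75th percentile (vertical axis, same span in every panel) by group (horizontal axis); each point is 1 pool, circles with solid lines are slide 1 and squares with dashed lines slide 2. On slide 2, Psmb11, Prss16 and Tbata are far lower in Meis1-CKO (at -1.19, 0.01 and 0.70), whereas on slide 1 their differences are -0.60, -0.04 and 0.29. Scx is lower by about the same amount on both slides, and Ly75 is higher in Meis1-CKO on slide 2 alone.

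Scx was the member with the most even difference over the slides. It encodes scleraxis, a basic helix-loop-helix transcription factor best known from tendon. Its controls read 2.35 and 1.40, Meis1-CKO 1 read 1.56 and Meis1-CKO 2 read 0.34. The groups overlapped, since Meis1-CKO 1 read above control 2, but within each slide the Meis1-CKO pool was the lower one, by -0.79 on slide 1 (1.73-fold lower) and -1.07 on slide 2 (2.10-fold lower). The overall log2 difference was -0.93 (SE 0.63, 95% interval -2.50 to 0.64, limma adjusted p = 1.00). It was negative whichever array was left out, between -1.54 and -0.32. In the RefSeq gene table Scx lies within the span of Bop1, a ribosome biogenesis gene, and whether RNA of Bop1 adds to the Scx probe was not tested. Bop1, singled out after its values were seen, had a log2 difference of -0.16, with 0.08 on slide 1 and -0.41 on slide 2.

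The genes of surface proteins had unlike values. Enpep encodes glutamyl aminopeptidase, the Ly51 antigen by which cTECs are sorted. It read -1.24 and -1.44 in the controls, -1.32 in Meis1-CKO 1 and -1.99 in Meis1-CKO 2, a narrow range. Its differences were -0.08 on slide 1 and -0.55 on slide 2, and -0.32 overall (SE 0.47, 95% interval -1.50 to 0.86, limma adjusted p = 1.00). Ackr4 encodes an atypical chemokine receptor that takes up CCL19, CCL21 and CCL25 without signalling through G proteins. It was dim, at -1.17 and -2.40 in the controls and -1.54 and -3.56 in Meis1-CKO 1 and 2, although above background on every array. The 2 controls differed from each other by as much as control 2 differed from Meis1-CKO 2. Its log2 difference was -0.38 on slide 1, -1.16 on slide 2 and -0.77 overall (SE 0.83, limma adjusted p = 1.00), and it turned to 0.24 without Meis1-CKO 2. Acad11, which overlaps Ackr4 in the RefSeq table and was singled out after its values were seen, was at -0.52 and -0.86 on slides 1 and 2, and whether its RNA adds to the Ackr4 probe was not tested.

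Ly75 went the other way in Meis1-CKO 2. It encodes DEC-205, an endocytic receptor of both cTECs and dendritic cells. Its controls read 2.89 and 1.68, Meis1-CKO 1 read 2.53 and Meis1-CKO 2 read 2.92, so that Meis1-CKO 2 was as high as the higher control. The difference was -0.35 on slide 1, 1.25 on slide 2 and 0.45 overall (SE 0.57, 95% interval -0.98 to 1.87, limma adjusted p = 1.00), and -0.16 without control 2. A second Ly75 probe (chr2:60177301-60177360) was above background in control 1 (-2.17) and Meis1-CKO 2 (-1.12) but not in control 2 or Meis1-CKO 1. Among the brightest myeloid and dendritic markers, Cybb, an NADPH oxidase gene of phagocytes, read 1.90 and 1.55 in the controls, 2.13 in Meis1-CKO 1 and 3.04 in Meis1-CKO 2. Xcr1, a chemokine receptor gene of cross-presenting dendritic cells, read 0.70, 0.97, 0.24 and 2.20 in that order. Lyz2, the lysozyme gene of macrophages, did not follow them and read 3.87, 4.49, 4.33 and 4.00. Of the 13 myeloid and dendritic genes tested, 10 were highest in Meis1-CKO 2, against 29% of all features, and the log2 of their summed signal was 4.60 and 5.01 in the controls, 4.95 in Meis1-CKO 1 and 7.03 in Meis1-CKO 2. Their part in the Ly75 signal was not tested.

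Set side by side, 6 of the 7 members had their lowest value in Meis1-CKO 2, against 37.1% of all features, and 5 of 7 had a slide 2 difference at or below -1, against 17.2% of all features and 14.2% of those above background on all 4 arrays, as all 7 members were. On slide 1 no member differed by as much as that (5.92% of features did), and Meis1-CKO 1 lay between the 2 controls for 6 of 7, all but Tbata. Members below control on both slides were 5 of 7, against 26.6% of all features, but on slide 1 Prss16 differed by only -0.04 and Enpep by -0.08. None was above control on both, against 20.4%, and 6 of 7 were lower in the difference of group means, against 54.8%. No member had both Meis1-CKO pools below both controls (14.5% of features did) or above them (11.1%). The median log2 difference of the 7 was -0.93, with -0.35 on slide 1 and -1.16 on slide 2, beside -0.05, 0.00 and -0.13 for all features. limma called 0 of 16841 features higher (0%) and 0 lower (0%) at an adjusted p under 0.05, while 472 (2.8%) had an unadjusted p under 0.05, and so none of the 7 passed. With the slide as a block the differences were the same, the SEs of the 7 were between 0.42 and 0.80, the adjusted p of each was 1.00, and 0 of 16841 features were called (0%), with 3.88% at an unadjusted p under 0.05. Whether a member's difference differed between the slides was not tested, as each slide held 1 array per group.

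**Figure D2:**
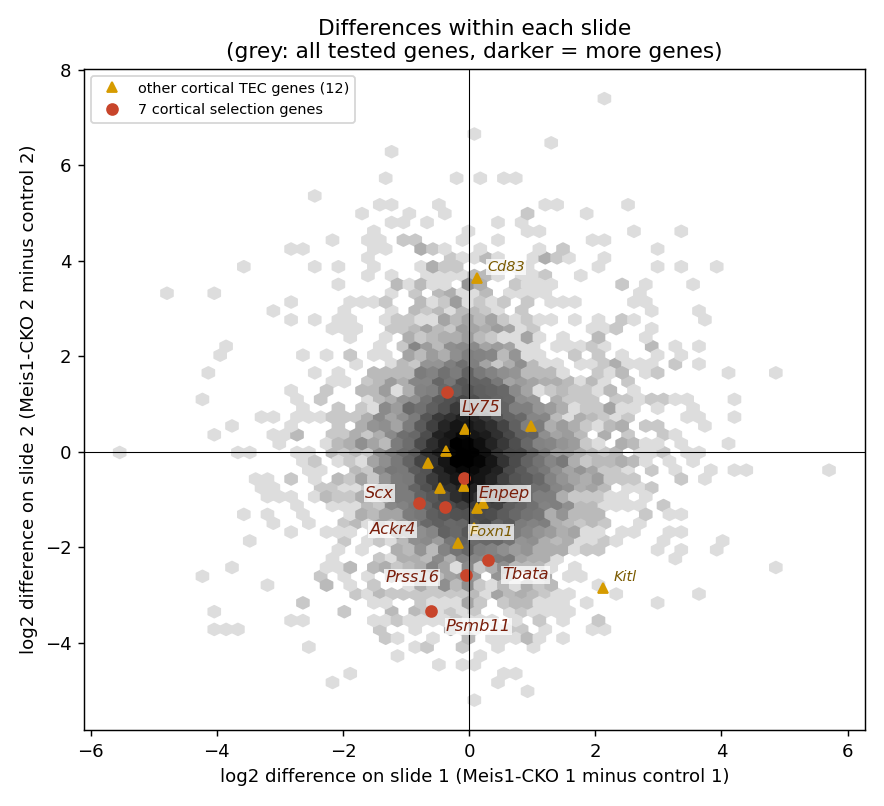
Log2 difference of Meis1-CKO minus control within slide 1 (horizontal axis) and slide 2 (vertical axis) for the 7 members (red circles), 12 other cortical TEC genes (yellow triangles) and all tested genes (grey hexagons, darker for more genes). Psmb11, Prss16 and Tbata lie at -0.60, -0.04 and 0.29 on slide 1 and between -3.33 and -2.25 on slide 2, Ly75 is above 0 on slide 2, and the grey cloud is taller than it is wide.

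Epithelial signal as a whole was also lower on that array, though by less. The 10 pan-epithelial genes averaged 2.40 and 2.73 in control 1 and 2, 2.61 in Meis1-CKO 1 and 2.06 in Meis1-CKO 2. In sorted bulk cells, fewer cells of a type and less RNA per cell cannot be told apart. Expressed relative to that epithelial mean on each array, the slide 2 difference was -2.66 for Psmb11, -1.90 for Prss16 and -1.58 for Tbata, against -0.40 for Scx, -0.49 for Ackr4, 0.12 for Enpep and 1.92 for Ly75. On this scale Psmb11, Prss16, Tbata, Scx and Ackr4 were below control on slide 2, and Enpep and Ly75 were above. Krt8 and Krt18 are in both the pan-epithelial list and the list of other cortical genes. The part of the epithelial shift in the members' differences was not tested. On slide 1 the same values were -0.80 for Psmb11, -0.25 for Prss16, 0.09 for Tbata, -1.002 for Scx, -0.59 for Ackr4, -0.29 for Enpep and -0.56 for Ly75. This scaling moved the median difference of all features from -0.05 to 0.18, kept the direction of all 7 overall differences, and put Psmb11 at -1.73 (SE 0.94) over both slides.

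**Figure D3:**
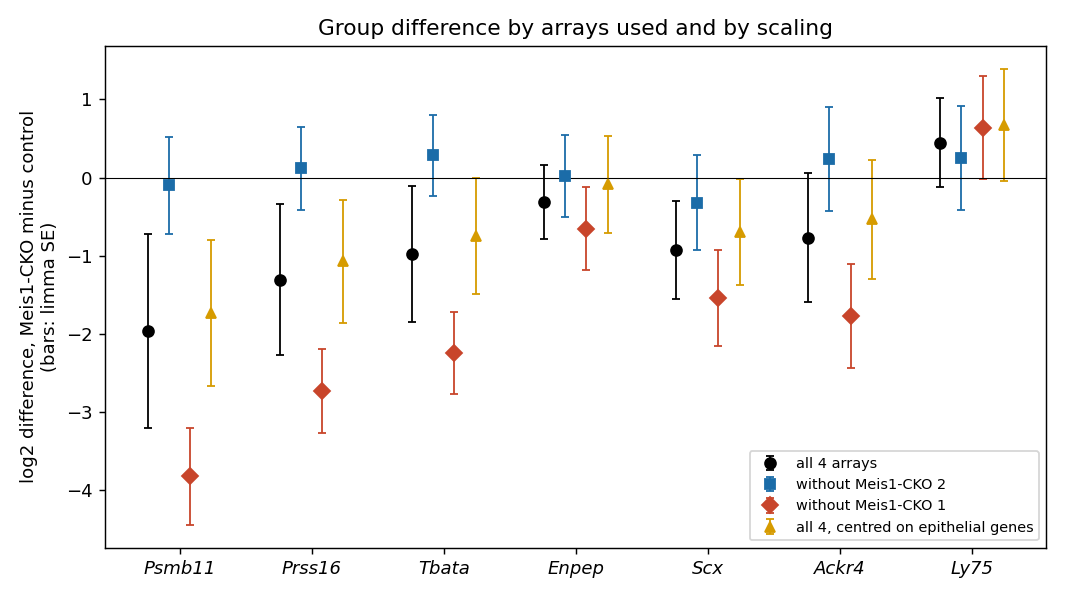
Log2 difference of Meis1-CKO minus control for each member (vertical axis, bars are limma standard errors) from all 4 arrays, without Meis1-CKO 2, without Meis1-CKO 1, and from all 4 arrays centred on pan-epithelial genes. Without Meis1-CKO 2 the values lie between -0.32 (Scx) and 0.28 (Tbata), and without Meis1-CKO 1 Psmb11 is at -3.83, Prss16 at -2.73 and Tbata at -2.24.

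Markers of other cells moved with the single pools. The log2 of the summed signal of 15 thymocyte and T cell genes was 5.90 and 4.66 in the controls, 3.33 in Meis1-CKO 1 and 6.68 in Meis1-CKO 2. Of the 15, 9 had their highest value in Meis1-CKO 2, against 29% of all features. In Meis1-CKO 1, 12 had their lowest value, for which the share over all features was not computed. Dntt, which encodes the terminal transferase of developing lymphocytes, read 5.13 and 3.50 in the controls, 1.73 in Meis1-CKO 1 and 3.49 in Meis1-CKO 2. Tcf7, a T lineage transcription factor gene, read 2.55, 1.79, 1.21 and 3.27 in that order. Zap70, Rag2 and Themis of that list were not tested, being above background on both arrays of neither group. Meis1-CKO 1, whose Psmb11 and Prss16 lay between the controls and whose Tbata lay above both, thus had the lowest sum of this list. Meis1-CKO 2 had the highest sum, which includes Ptprc, at 5.55 there and 1.44 in control 1. That rank rests on Ptprc, since without it the sum would be highest in control 1. Against control 1, Meis1-CKO 2 read higher for Tcf7 but lower for Dntt. The summed signal of 8 fibroblast and mural genes was 6.06, 5.28, 5.91 and 4.20 on the same scale and that of 3 erythroid genes 2.45, 1.02, 1.69 and -0.72, both lowest in Meis1-CKO 2 like the cortical genes. For 4 B cell genes it was 2.04, 2.02, 1.62 and 1.04, and of 7 endothelial genes on the arrays 2 were tested. The part of these cells in the members' differences was not tested.

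**Figure D4:**
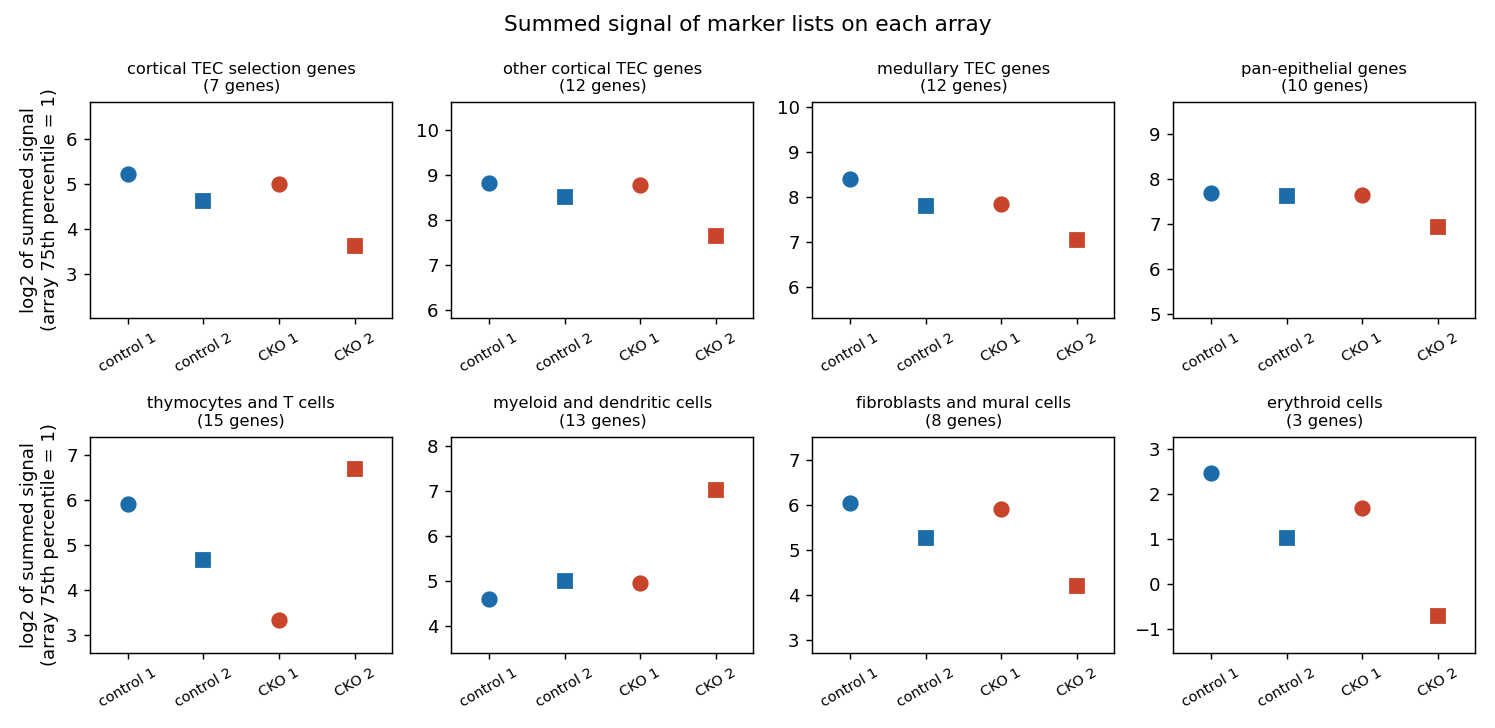
Log2 of the summed signal of each marker list (vertical axis, signal in units of the array's 75th percentile, same span in every panel) on control 1, control 2, Meis1-CKO 1 and Meis1-CKO 2 (horizontal axis); each point is 1 array, circles slide 1 and squares slide 2. The 7 cortical genes are lowest in Meis1-CKO 2 (3.61 against 4.62 to 5.22 elsewhere), where the myeloid sum is highest. The thymocyte sum is also highest there, but only with Ptprc included.

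Among 12 other cortical genes, 0 passed the test in either direction, 9 had a negative and 3 a positive log2 difference, and the median was -0.41, with 0.01 on slide 1 and -0.74 on slide 2. Foxn1, the master regulator of TECs, read 1.03 and 1.21 in the controls, 0.86 in Meis1-CKO 1 and -0.70 in Meis1-CKO 2, with both Meis1-CKO pools below both controls and a log2 difference of -1.04 (SE 0.63). Ccl25, the ligand that draws CCR9-bearing thymocytes, was at 0.09 on slide 1 and -1.60 on slide 2, and Pax1, a paired-box factor of pharyngeal pouch endoderm, at 0.22 and -1.08. Il7, the thymocyte survival cytokine, was lower on both slides (-0.46 and -0.76), and its groups did not overlap either. The cathepsin L gene Ctsl, in contrast, was at -0.37 and 0.01, and Cxcl12 at -0.65 and -0.23. Dll4, the NOTCH ligand that commits progenitors to the T lineage, was higher on both (0.98 and 0.54). It was dim, at -3.29 and -2.62 in the controls and -2.31 and -2.08 in Meis1-CKO 1 and 2. The lowest signal called above background was -3.45 in control 1. Cd83, also a gene of mature dendritic cells, was at 0.12 and 3.63. Both Meis1-CKO pools read above both controls for Dll4 and Cd83. The groups thus did not overlap for 2 of the 12 genes in the lower direction (14.5% of all features) and for 2 in the higher one (11.1%). Cd274 was at -0.06 and 0.47, and Kitl at 2.13 and -2.85, with Kitl above background in 1 of the 2 Meis1-CKO pools. The keratin genes Krt8 (0.12 and -1.17) and Krt18 (-0.08 and -0.71) were lower on slide 2.

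The related proteasome subunit genes had smaller slide 2 differences than Psmb11, in both directions. Psmb5, Psmb6 and Psmb7, which encode the constitutive catalytic subunits, differed by -0.06, -0.10 and 0.24 on slide 2 and by -0.24, -0.19 and 0.08 on slide 1. Of the immunoproteasome genes, Psmb8 (-0.04 on slide 1 and 1.76 on slide 2) and Psmb9 (-0.32 and 1.60) were higher on slide 2, and Psmb10 (-0.02 and -0.63) was lower. Both Meis1-CKO pools read below both controls for Psmb5 and Psmb10 (14.5% of all features did) and above them for Psmb7 (11.1%). The serine carboxypeptidase gene Prcp, a relative of Prss16, was at -0.12 and 1.83, and Dpp7, another, was at -0.17 and 1.43 with a signal above background in 1 of 2 control pools. The aminopeptidase gene Anpep, a relative of Enpep, read -2.22 and -2.46 in the controls and -1.35 and 0.69 in Meis1-CKO, a log2 difference of 2.01 (SE 0.75, limma adjusted p = 1.00) where Enpep had -0.32. Lnpep was at -0.002 and 1.54 on the slides and Erap1 at -0.55 and 0.62.

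Of the chemokines that ACKR4 takes up, Ccl19 was at -0.02 on slide 1 and -2.23 on slide 2 and Ccl21a at -0.88 and -0.54. The atypical receptor gene Ackr2 was at -0.74 and -2.68 and Ackr1 at 1.76 and -0.86. Mrc1, a mannose receptor of the family of Ly75, was at 0.31 and -2.88. Ackr1 was above background in 1 of the 2 control pools, and read -4.67 in control 1. Mrc1 was above background in 1 of the 2 Meis1-CKO pools, and read -4.30 in Meis1-CKO 2. Of this list of 20 relatives and ligands, 16 were tested (all but Tcf15, Ackr3, Mrc2 and Pla2r1), and 0 passed the test in either direction. Of the 16, 7 had a negative and 9 a positive log2 difference, and the median was 0.10. Both Meis1-CKO pools read below both controls for 4 of them, Psmb5, Psmb10, Ccl19 and Ackr2 (14.5% of all features). They read above both controls for 2, Psmb7 and Anpep (11.1%).

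Medullary TEC genes differed on slide 2 as well. All 12 of a medullary list were lower there (against 56.5% of all features), with a median of -0.70, and 6 of 12 on slide 1 (against 49.8%). Of its brightest genes, the keratin genes Krt5 (-0.84 on slide 1 and -0.69 on slide 2) and Krt14 (-0.80 and -0.71) and the chemokine gene Ccl21a (-0.88 and -0.54) were lower on both. For 5 of the 7 cortical members the slide 2 difference was below that medullary median. Whether the cortical and medullary lists differed from each other was not tested.

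The genes whose 4 values, centred on their own mean, lay nearest to those of Psmb11 were Esr1, the oestrogen receptor gene (Euclidean distance 0.57), Acer1 (0.68), Dmbx1 (0.71), Lrrc17 (0.78) and Wscd1 (0.82), among 12356 named genes above background on all 4 arrays. Esr1 read 1.11 and 0.33 in the controls, 1.02 in Meis1-CKO 1 and -2.46 in Meis1-CKO 2. In that order Prss16 was number 11 (1.02), Tbata number 80 (1.48) and Ackr4 number 187 (1.71), followed by Ccl25 (379), Foxn1 (420) and Scx (519). Enpep (2604) and Ly75 (9256) were far from Psmb11. The order rests on 4 arrays and largely on how low a gene was in Meis1-CKO 2.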

How the data were processed

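Each array's deposited scanner file holds linear spot intensity values, background-subtracted and detrended array by array (Agilent Feature Extraction 9.5.3.1), with surrogates for low values and no scaling between arrays, per the file headers. The deposited value table holds log2 values; set against the scanner values over 20818 probes, the difference of control 2 minus control 1 gave slope 1.00 and correlation 1.00, every probe was centred on its median, and the column medians were 0.04, 0.09, -0.06 and -0.12 (control 1 and 2, Meis1-CKO 1 and 2). The authors' steps for it are not stated in the labels.

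From the processed signals, log2 values minus each array's 75th percentile were computed without control spots and 63 to 78 outlier spots per array, and spots of a probe were averaged. Symbols were updated by RefSeq accession for 26690 of 41174 probes and by a single older symbol for 952, through a RefSeq table of GRCm38.p6; 8343 probes stayed unnamed. Promoters are RefSeq's. A feature was tested if both arrays of 1 or both groups were well above background (16841 features), with limma 3.58.1 (lmFit, eBayes, R 4.3.3) on all 4 arrays and Benjamini-Hochberg adjustment at 0.05, after a check on simulated data. The 2 residual degrees of freedom became 5.50 after moderation, and the number of arrays limits the precision. The members and all gene lists were chosen with earlier results of these data known. All members and all genes of both cortical and relatives lists are named whatever their values, with the 5 genes nearest to Psmb11. From a marker list at most the 3 genes of highest mean signal are named (Epcam, a sort marker, is an exception). Alternatives were another background correction, 3 scalings, 2 filters, 2 probe rules, the value table, the replicate number as a block, and each array left out.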

Additional observations from a re-analysis of the deposited data

How the results depend on the processing

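With 2 pools per group and 2 slides that gave unlike differences, the adjusted p of all 7 members was 1.00, which says nothing of stability. Over 14 alternatives, 105 of 112 values of the 7 members and Meis1 kept their direction and side of the threshold, 6 reversed and 1 (Psmb11 without Meis1-CKO 1) passed. All 7 exceptions came from leaving out an array. Over the 4 such fits, the log2 difference ranged from -3.83 to -0.10 for Psmb11, -2.73 to 0.12 for Prss16, -2.24 to 0.28 for Tbata, -0.65 to 0.020 for Enpep, -1.54 to -0.32 for Scx, -1.78 to 0.24 for Ackr4, -0.16 to 1.05 for Ly75 and -1.57 to 0.080 for Meis1; the positive values of Prss16, Tbata, Enpep, Ackr4 and Meis1 came without Meis1-CKO 2 and the negative one of Ly75 without control 2. Without Meis1-CKO 2, 2 of 7 members were lower and 5 higher. The number of features called went from 0 to between 0 and 357 with an array left out, the 357 (216 higher and 141 lower) without Meis1-CKO 1, and to 5, all lower, when the arrays were centred on pan-epithelial genes; the cause of the latter was not tested. With the replicate number, which is also the slide, as a block, 0 features were called, 653 had an unadjusted p under 0.05, and Psmb11 stayed at -1.96 (SE 0.80). Within a number, the deviations from the group mean correlated at 0.13. With 2 arrays per group both pairs give the same value by construction, so this is 1 value. The labels tie a number to no shared day. Among settings that kept all 4 arrays, values moved by over 1.5 times, with no change of direction or call, under normexp background correction (Enpep to -0.12, Ackr4 to -0.19, Meis1 to -0.40), with all probes of a gene averaged (Prss16 to -0.58, Tbata to -0.63, Ly75 to 0.20) and with pan-epithelial centring (Enpep to -0.09, Ly75 to 0.68).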

Other observations

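The 2 control pools differed from each other in several cortical genes by as much as a Meis1-CKO pool differed from its slide's control. Control 2 read below control 1 for 6 of the 7 members, all but Tbata, by -0.99 for Psmb11, -0.95 for Scx, -1.24 for Ackr4 and -1.21 for Ly75, but by -0.32 for Prss16 and -0.20 for Enpep. Ctsl (6.36 and 5.07) and Cxcl12 (2.45 and 0.63), a chemokine gene of cortical stroma, were also lower in control 2 than in control 1, whereas Foxn1 (1.03 and 1.21) and Ccl25 (7.60 and 7.51) were close. Between the 2 Meis1-CKO pools, Meis1-CKO 2 minus Meis1-CKO 1 was -3.72 for Psmb11, -2.85 for Prss16, -2.53 for Tbata, -2.02 for Ackr4, -1.22 for Scx, -0.67 for Enpep and 0.39 for Ly75. These are single arrays on separate slides, with no test.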
